A study of Mus musculus with 7 samples.

Results

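The 10 genes described here mark the ventral forebrain and the making of the transmitter GABA, and they were followed across mouse neural stem cells of 3 Tet genotypes. The genes were listed by symbol: the homeobox genes Gsx1, Gsx2, Dlx1, Dlx2, Dlx5, Dlx6 and Lhx6, and the GABA genes Gad1, Gad2 and Slc32a1. All 10 were found among the 18145 genes of the deposited table, and all 10 passed the filter on low values. The cells were neural stem cells at passage 1, cultured cells that divide and can form neurons and glia. They came from 2 Tet-TMut lines (TMut), 2 Tet-TFoCa lines (TFoCa) and 3 wild-type lines (WT), with 1 RNA library a line according to the design text. TET enzymes oxidise 5-methylcytosine in DNA stepwise to hydroxymethyl-, formyl- and carboxylcytosine, and the series title sets the first product against the others. The labels do not say which Tet genes or which step each genotype affects, whether the wild-type lines share a background with the mutants, or how the lines were derived from animals or embryonic stem cells.

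In the embryonic forebrain, dorsal progenitors give rise to glutamatergic neurons and ventral progenitors in the ganglionic eminences give rise to GABAergic neurons. In the ventral progenitors Gsx1 and Gsx2 act upstream of the Dlx genes, and Dlx proteins activate the genes for GABA synthesis as cells become neurons. Lhx6 acts in a branch of this lineage, the interneurons of the medial ganglionic eminence.

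The ventral genes other than Lhx6 moved one way in TMut lines, and Lhx6 the other. In TMut versus WT, 9 of the 10 genes fell and 1, Lhx6, rose, at a Benjamini-Hochberg adjusted p under 0.05 from limma over all genes. Over all 18134 genes tested, 38.8% were called in that comparison, 20.4% lower and 18.4% higher. The summed normalized count of the 9 genes other than Lhx6 averaged 1684 ± 568 in TMut lines, 11043 ± 2906 in TFoCa lines and 18667 ± 5243 in WT lines (SD, n = 2, 2 and 3). The WT mean was 11.1 times the TMut mean, 8.95 times the sum in TMut replicate 1 and 14.6 times that in TMut replicate 2. Lhx6 was left out of this sum for its direction in these data. Over all 10 genes the WT mean was 9.35 times the TMut mean. Set against WT, TFoCa lines had only Gsx1 called lower and only Lhx6 called higher, where 8.77% of all genes were called, 3.52% lower and 5.25% higher. TMut lines were also lower than TFoCa lines for the same 9 genes and higher for Lhx6, where 35.8% of all genes were called, 18.5% lower and 17.3% higher.

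A normalized count is a gene's read count divided by the size factor of its library, as the authors deposited it. Fold changes below are log2 values of the normalized count plus 1, with their standard error (SE), from a limma fit over all 7 libraries, and adjusted p is always the Benjamini-Hochberg value over all genes tested in that fit. The p-values measure the spread between lines. TMut versus WT and TFoCa versus WT share the WT libraries, so their values are given side by side and not as independent results. In bulk RNA, fewer cells of a type and less RNA per cell cannot be told apart.

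**Figure D1:**
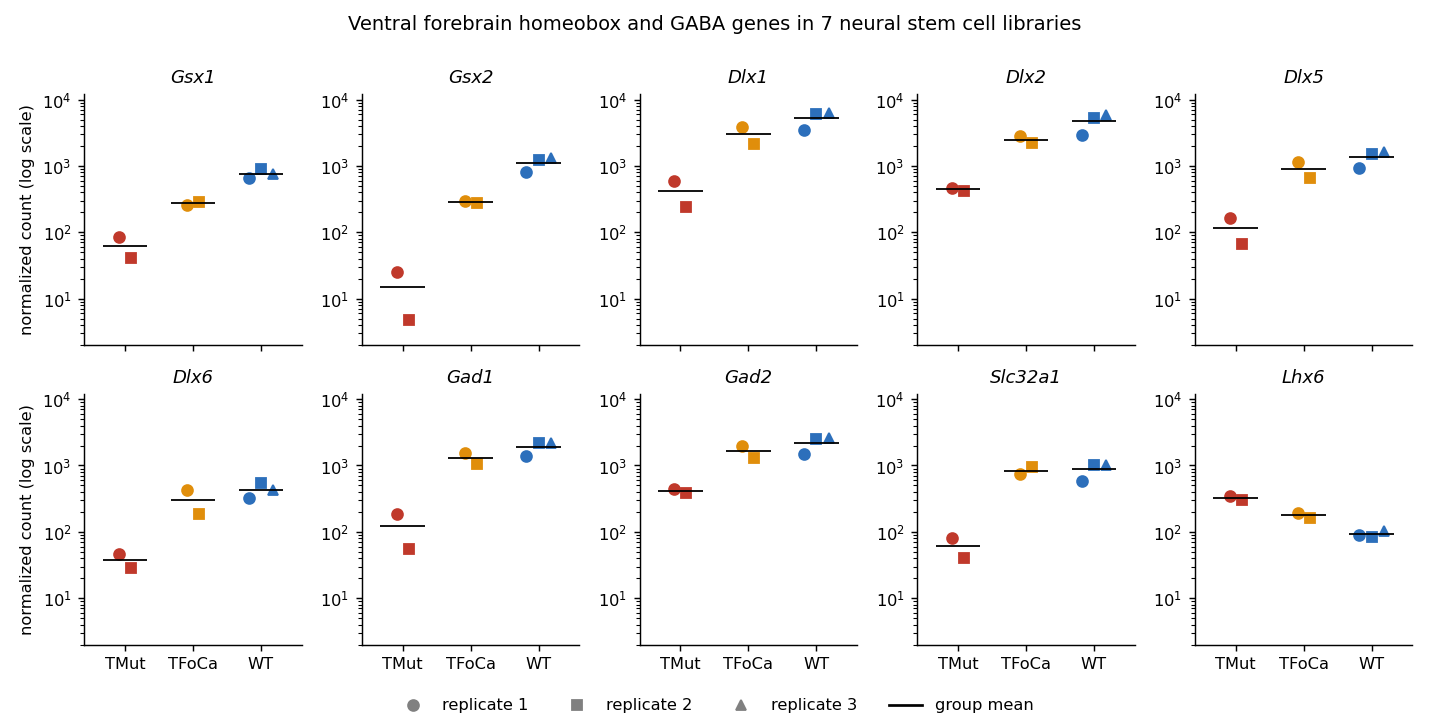
Normalized count on a log axis of each of the 10 genes in the TMut, TFoCa and WT libraries; each marker is 1 library, its shape gives the replicate number, and each bar is the group mean. In 9 panels both TMut libraries lie below every other library, and in the Lhx6 panel both lie above.

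Gsx1 and Gsx2 encode homeodomain transcription factors of ventral progenitors, and they stand at the top of the Dlx cascade. Gsx1 had 85.2 and 40.8 normalized counts in TMut libraries, 258 and 286 in TFoCa libraries, and 651, 885 and 766 in WT libraries. The 3 genotypes did not overlap. Its fold change was -3.67 ± 0.31 in TMut versus WT (adjusted p = 0.00022, limma) and -1.48 ± 0.31 in TFoCa versus WT (adjusted p = 0.028). In this fit Gsx1 is thus the one gene of the 9 whose fall was called in both mutant genotypes. Gsx2 had a larger fall in TFoCa versus WT that missed the threshold here, as given below. Its call in TFoCa lines was lost when TFoCa replicate 1 or 2, or any WT replicate, was left out (adjusted p = 0.062 to 0.11), while the fold change stayed between -1.60 and -1.38.

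Gsx2 showed the deepest fall of the 10 genes in TMut lines. It had 25.3 and 4.80 normalized counts in TMut libraries, which rest on 22 and 4 reads. The TFoCa libraries had 295 and 274, and the WT libraries 807, 1217 and 1334. All 3 genotypes were again separate, and the WT mean was 74.3 times the TMut mean. The fold change in TMut versus WT was -6.47 ± 0.57 (adjusted p = 0.00024, limma). It was -7.56 without TMut replicate 1 and -5.38 without TMut replicate 2. For TFoCa versus WT it was -1.94 ± 0.57, which did not pass the threshold (adjusted p = 0.075), although both TFoCa libraries lay below all WT libraries. It passed with only the 2 genotypes fitted, which leaves the TMut libraries out of the SE (adjusted p = 0.0075, limma). Other tests that were tried also passed it there, as given with the processing alternatives. TMut lines were lower than TFoCa lines by -2.18 ± 0.34 for Gsx1 (adjusted p = 0.0038) and by -4.53 ± 0.62 for Gsx2 (adjusted p = 0.0027). Without TMut replicate 1 that difference was -5.62 for Gsx2, and without TMut replicate 2 it was -3.44.

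The start regions of Gsx1 and Gsx2 are shown here with their CpG sites, the substrate of cytosine methylation and of TET enzymes. Both run 5′ to 3′ on the gene's strand from 250 bases before to 50 after the annotated start, with CpG sites in capitals, from RefSeq on build GRCm38.p6. Gsx1 lies at chr5:147188446-147188745 and Gsx2 at chr5:75075351-75075650, both on the plus strand of chromosome 5.
Gsx1: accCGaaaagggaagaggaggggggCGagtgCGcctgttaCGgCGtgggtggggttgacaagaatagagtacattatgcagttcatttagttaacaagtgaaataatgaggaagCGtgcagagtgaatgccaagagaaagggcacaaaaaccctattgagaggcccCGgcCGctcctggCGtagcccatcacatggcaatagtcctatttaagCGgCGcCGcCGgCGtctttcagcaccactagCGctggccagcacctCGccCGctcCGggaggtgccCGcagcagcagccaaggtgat
Gsx2: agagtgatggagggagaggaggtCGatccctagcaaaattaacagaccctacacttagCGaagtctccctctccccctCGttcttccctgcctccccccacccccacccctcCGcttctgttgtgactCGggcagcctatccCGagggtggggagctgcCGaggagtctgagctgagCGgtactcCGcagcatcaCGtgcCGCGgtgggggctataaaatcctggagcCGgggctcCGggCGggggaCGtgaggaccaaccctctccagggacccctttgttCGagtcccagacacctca
The Gsx1 window holds 19 CpG sites and the Gsx2 window 17. Over all 32851 such windows in the RefSeq table the median is 7 sites and the quartiles are 3 and 20. The letters TATAAA, searched on both strands, occur in the Gsx2 window, the Gad1 window and the last of 3 Lhx6 windows, and in 13.6% of all windows. Methylation was not measured in these files.

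The 4 Dlx genes encode homeodomain factors of ventral progenitors and of young GABAergic neurons. They lie in 2 convergently transcribed pairs, Dlx1 with Dlx2 on chromosome 2 and Dlx5 with Dlx6 on chromosome 6. Dlx1 had 593 and 238 normalized counts in TMut libraries, 3890 and 2129 in TFoCa libraries, and 3528, 6017 and 6271 in WT libraries. Dlx2 had 464 and 423 in TMut libraries, 2802 and 2188 in TFoCa libraries, and 2901, 5316 and 5918 in WT libraries. For both genes the TMut libraries were far below all others. TFoCa replicate 1 lay above WT replicate 1 for Dlx1, whereas both TFoCa libraries lay below all WT libraries for Dlx2.

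Dlx5 had 164 and 67.2 normalized counts in TMut libraries, 1144 and 657 in TFoCa libraries, and 938, 1524 and 1622 in WT libraries. Dlx6 had 46.1 and 28.8 in TMut libraries, 422 and 189 in TFoCa libraries, and 329, 536 and 431 in WT libraries. As for Dlx1, the TMut libraries stood apart and the TFoCa and WT libraries overlapped.

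All 4 Dlx genes fell in TMut versus WT. The fold changes were -3.76 ± 0.43 for Dlx1, -3.34 ± 0.29 for Dlx2, -3.64 ± 0.42 for Dlx5 and -3.50 ± 0.40 for Dlx6 (adjusted p = 0.00063, 0.00022, 0.00063 and 0.0006, limma). Without TMut replicate 1 the value was -4.42 for Dlx1 and -4.28 for Dlx5, and without TMut replicate 2 it was -3.10 and -3.01. None was called in TFoCa versus WT, where the values were -0.83 ± 0.43, -0.86 ± 0.29, -0.61 ± 0.42 and -0.58 ± 0.40 in the same order (adjusted p = 0.28, 0.11, 0.42 and 0.41). That for Dlx2 passed the threshold without WT replicate 1 (-1.18, adjusted p = 0.018). In TMut versus TFoCa all 4 fell, by values of -2.48 for Dlx2 to -3.03 for Dlx5 (adjusted p = 0.0022 to 0.0042). In that comparison Dlx1 was at -3.59 without TMut replicate 1 and -2.28 without TMut replicate 2, and Dlx5 at -3.67 and -2.40.

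Dlx2 is shown with its start region as the gene with the highest level per length. It lies on the minus strand of chromosome 2 at chr2:71546705-71547004, in the same build and orientation as above, with CpG sites in capitals.
Dlx2: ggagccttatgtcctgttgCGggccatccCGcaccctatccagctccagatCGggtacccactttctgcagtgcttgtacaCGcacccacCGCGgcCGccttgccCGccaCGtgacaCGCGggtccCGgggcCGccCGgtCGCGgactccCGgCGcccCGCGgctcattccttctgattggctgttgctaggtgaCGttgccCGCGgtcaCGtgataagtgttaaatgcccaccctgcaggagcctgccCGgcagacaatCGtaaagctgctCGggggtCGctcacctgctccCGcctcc
With 29 CpG sites it holds the most of the 10 windows found for 8 of the genes, and the Dlx1 window holds 27.

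Gad1 and Gad2 encode the glutamate decarboxylases that make GABA, and Slc32a1 encodes the vesicular transporter that loads it into synaptic vesicles. Gad1 had 187 and 55.2 normalized counts in TMut libraries, 1555 and 1039 in TFoCa libraries, and 1382, 2183 and 2204 in WT libraries. Gad2 had 441 and 384 in TMut libraries, 1991 and 1289 in TFoCa libraries, and 1516, 2487 and 2611 in WT libraries. Slc32a1 had 79.5 and 40.8 in TMut libraries, 741 and 936 in TFoCa libraries, and 588, 1031 and 1009 in WT libraries. The TMut libraries were below every other library for all 3 genes, and TFoCa and WT libraries overlapped for all 3.

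In TMut versus WT the fold change was -4.20 ± 0.48 for Gad1, -2.38 ± 0.27 for Gad2 and -3.87 ± 0.35 for Slc32a1 (adjusted p = 0.00059, 0.00061 and 0.00026, limma). Gad2 thus had the smallest fall of the 9 genes, with a WT mean 5.34 times the TMut mean, against 15.9 times for Gad1. Without TMut replicate 1 the value for Gad1 was -5.06, and without TMut replicate 2 it was -3.33. The values in TFoCa versus WT were -0.56 ± 0.48, -0.42 ± 0.27 and -0.03 ± 0.35, and none passed the threshold (adjusted p = 0.51, 0.38 and 0.97). In TMut versus TFoCa they were -3.63 ± 0.52, -1.96 ± 0.30 and -3.85 ± 0.38 (adjusted p = 0.003, 0.0036 and 0.0015). Gad1 was there at -4.50 without TMut replicate 1 and at -2.76 without TMut replicate 2.

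The start region of Gad1 is given as that of the decarboxylase with the larger fall. It lies on the plus strand of chromosome 2 at chr2:70561879-70562178, in the same build, with its 21 CpG sites in capitals.
Gad1: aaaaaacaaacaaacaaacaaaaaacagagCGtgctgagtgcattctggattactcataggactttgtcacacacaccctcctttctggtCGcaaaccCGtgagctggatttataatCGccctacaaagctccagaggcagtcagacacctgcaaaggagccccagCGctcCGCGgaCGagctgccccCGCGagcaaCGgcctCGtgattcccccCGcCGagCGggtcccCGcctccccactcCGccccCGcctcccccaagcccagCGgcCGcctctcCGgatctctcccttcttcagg
The Gad2 window holds 14 CpG sites and the Slc32a1 window 17.

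Lhx6 encodes a LIM homeodomain factor of interneurons born in the medial ganglionic eminence. It had 342 and 304 normalized counts in TMut libraries, 193 and 161 in TFoCa libraries, and 89.4, 84.9 and 104 in WT libraries. The genotypes were separate and in the reverse order of the other 9 genes, with TMut highest and WT lowest. The fold change was 1.79 ± 0.23 in TMut versus WT (adjusted p = 0.00093, limma), 0.93 ± 0.23 in TFoCa versus WT (adjusted p = 0.046) and 0.87 ± 0.25 in TMut versus TFoCa (adjusted p = 0.03). The TMut mean was 3.49 times, and the TFoCa mean 1.91 times, the WT mean.

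The rise of Lhx6 in TMut versus WT passed the threshold with each library left out in turn. Its call in TFoCa versus WT was lost whichever of the 7 libraries was left out (adjusted p = 0.054 to 0.15), with fold changes of 0.79 to 1.06. In TMut versus TFoCa the call was lost without TMut replicate 1, TMut replicate 2, TFoCa replicate 2, WT replicate 2 or WT replicate 3 (adjusted p up to 0.10), with no fold change below 0.73.

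The RefSeq table gives 3 start regions for Lhx6, with 16, 17 and 11 CpG sites. The first is shown because Lhx6 is the gene that moved against the others; it lies on the minus strand of chromosome 2 at chr2:36105359-36105658, with CpG sites in capitals.
Lhx6: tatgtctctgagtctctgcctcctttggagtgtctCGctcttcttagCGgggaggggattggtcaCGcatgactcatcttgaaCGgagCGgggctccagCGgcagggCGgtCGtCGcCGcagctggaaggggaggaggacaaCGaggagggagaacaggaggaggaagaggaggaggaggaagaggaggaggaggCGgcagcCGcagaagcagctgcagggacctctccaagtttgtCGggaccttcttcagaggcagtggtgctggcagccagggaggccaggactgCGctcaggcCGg
All 10 windows of the 8 genes, Lhx6 included, held more CpG sites than the median of all windows. The letters TAATTA, a core bound by homeodomain proteins, were searched on both strands and occur in 0 of the 10 windows and in 5.29% of all windows. That says only that these letters are not within these windows.

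**Figure D2:**
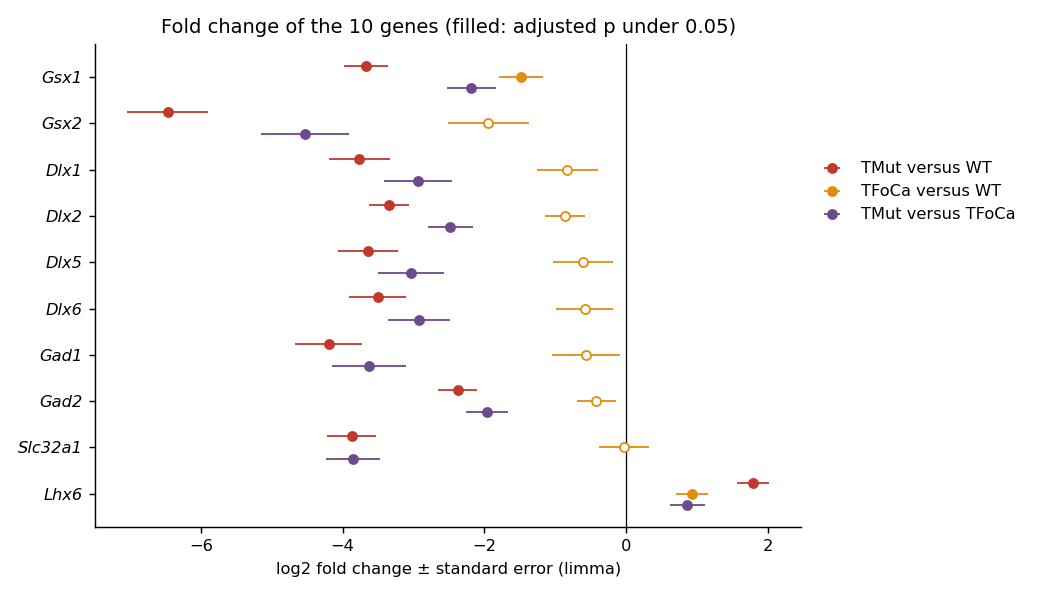
Log2 fold change with its standard error for each gene in TMut versus WT, TFoCa versus WT and TMut versus TFoCa, with filled points at an adjusted p under 0.05. The 9 genes other than Lhx6 lie between -6.47 and -2.38 in TMut versus WT and between -1.94 and -0.03 in TFoCa versus WT.

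Taking the 10 genes as a list, the median log2 fold change was -3.66 in TMut versus WT, beside 0.00 over all genes tested. It was -0.60 in TFoCa versus WT, beside -0.02, and -2.93 in TMut versus TFoCa, beside 0.00. Values in TFoCa versus WT were negative for 9 of the 10 genes. The TFoCa libraries were separate from the WT libraries for Gsx1, Gsx2 and Dlx2, which were lower, and for Lhx6, which was higher, and 6 genes overlapped. Over all genes tested, 24.2% lay lower and 21.0% higher in every TFoCa than in every WT library. In TMut versus WT all 10 genes were separate, where 33.6% of all genes lay lower and 33.4% higher. In TMut versus TFoCa they were separate too, where the shares were 33.5% and 33.9%. By role, the WT mean of the summed counts was 24.2 times the TMut mean for Gsx1 and Gsx2, 11.6 times for the Dlx genes and 8.43 times for the genes of GABA synthesis and loading. For Gsx1 and Gsx2 it was 17.1 times the sum in TMut replicate 1 and 41.4 times that in TMut replicate 2. Those values were 9.30 and 15.6 for the Dlx genes, and 7.07 and 10.4 for GABA synthesis and loading. The order of the sums did not hold gene by gene. The WT mean was 12.2 times the TMut mean for Gsx1 and 74.3 times for Gsx2. It was 10.6 to 12.7 times for the Dlx genes, and 15.9, 5.34 and 14.6 times for Gad1, Gad2 and Slc32a1.

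Within each genotype the same library was the lowest for most of the 10 genes. The share of all genes lowest in that library was not taken. TMut replicate 2 was the lower TMut library for all 10 genes, Lhx6 included. TFoCa replicate 2 was the lower TFoCa library for 8 genes, all but Gsx1 and Slc32a1. WT replicate 1 was the lowest WT library for 9 genes, all but Lhx6. The ratio of the highest to the lowest library of a genotype had a median of 2.02 over the 10 genes in TMut, 1.39 in TFoCa and 1.69 in WT. Over all genes tested, on counts plus 1, the medians were 1.18, 1.24 and 1.22.

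Ratios between these genes, taken inside each library, give the balance within each pair. They were chosen after the values were seen. The ratio of Gad1 to Gad2 was 0.423 and 0.144 in TMut libraries, 0.781 and 0.806 in TFoCa libraries, and 0.911, 0.878 and 0.844 in WT libraries. The ratio of Gsx2 to Gsx1 was 0.297 and 0.118 in TMut libraries, 1.14 and 0.957 in TFoCa libraries, and 1.24, 1.38 and 1.74 in WT libraries. Both ratios were lower in each TMut library than in any other library.

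Among the Dlx genes the ratios were closer. That of Dlx1 to Dlx5, genes on different chromosomes, was 3.63 and 3.54 in TMut libraries, 3.40 and 3.24 in TFoCa libraries, and 3.76, 3.95 and 3.87 in WT libraries. That of Dlx1 to Dlx2 was 1.28 and 0.562 in TMut libraries, 1.39 and 0.973 in TFoCa libraries, and 1.22, 1.13 and 1.06 in WT libraries. For Dlx1 to Dlx2 the genotypes overlapped, and for Dlx1 to Dlx5 both TMut values lay below the WT values by a small margin. In all, 7 ratios were compared between TMut and WT by a two-sided exact permutation test over the 10 splits of 5 libraries. The test cannot give a p below 0.1, so no ratio could pass the threshold used for calls. The ratios were also chosen after the values were seen, so no conclusion is drawn from these p-values. Gad1 to Gad2, Gsx2 to Gsx1, Dlx1 to Dlx5, Slc32a1 to Gad2 and Dlx2 to Gsx2 reached that smallest p of 0.1 (0.14 after Benjamini-Hochberg adjustment over 7 ratios). That p does not reflect the size of a difference. Dlx1 to Dlx5 had it with means of 3.58 in TMut and 3.86 in WT libraries. Gsx2 to Gsx1 had it with means of 0.207 in TMut and 1.45 in WT libraries. Dlx1 to Dlx2 gave an exact permutation p of 0.6 and Dlx5 to Dlx6 one of 0.9.

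**Figure D3:**
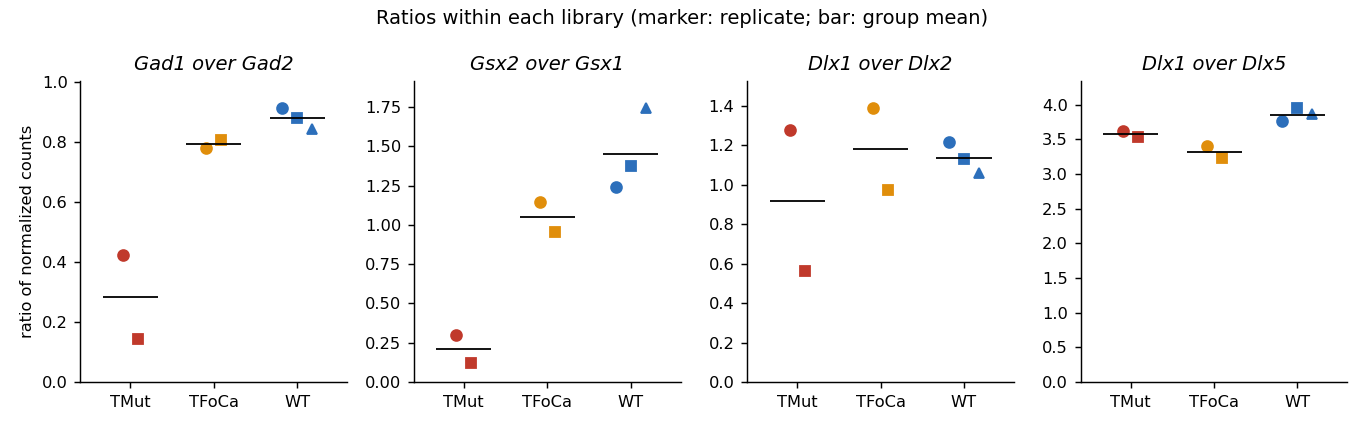
Ratio of normalized counts inside each library for 4 pairs of genes, by genotype; each marker is 1 library and each bar the group mean. Gad1 over Gad2 and Gsx2 over Gsx1 are lower in both TMut libraries than in every other library, whereas Dlx1 over Dlx2 overlaps between genotypes.

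Levels of different genes were compared per kilobase of exon, with exon lengths from GENCODE M21. On that scale Dlx2 ranked first of the 10 genes in all 7 libraries, with a mean of 155 normalized counts per kilobase in TMut lines, 874 in TFoCa lines and 1650 in WT lines. Gsx2 ranked 3 in WT lines, at 672 per kilobase, and last in TMut lines, at 9.05. Lhx6 ranked last in every TFoCa and every WT library, with means of 36.9 and 19.3 per kilobase. In TMut lines it ranked 4 by its mean, at 67.2 per kilobase. By that mean it stood below Dlx2, Dlx1 and Gad2, while in TMut replicate 2 it ranked 3 and stood above Dlx1.

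Among all genes with a genotype mean of 100 or more, 13824 in number, the nearest profiles over the 7 libraries were sought for Dlx2 and Gad1. Likeness was the root mean square difference of log2 profiles, each centred on its own mean. Nearest to Dlx2 were Csrnp3 at 0.277, Sall3 at 0.286, Edn3 at 0.295, Prr18 at 0.300 and Pou2f2 at 0.312. The nearest of the other 9 genes to Dlx2 was Dlx6 at 0.354. Nearest to Gad1 were Lonrf2 at 0.170, Elavl3 at 0.203, Ncan at 0.210, Dlx6os1 at 0.215 and Pantr1 at 0.218. Dlx5 at 0.294 and Dlx1 at 0.303 were the nearest to Gad1 among the 10 genes. Elavl3 is a neuronal RNA-binding protein gene, Ncan encodes the proteoglycan neurocan and Dlx6os1 is a long noncoding RNA of the Dlx5 and Dlx6 locus.

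Some of these loci have noncoding RNAs on the opposite strand, and whether counting used strand is not given in the sources used here. Dlx6os1 had 89.8 and 16.8 normalized counts in TMut libraries, 660 and 542 in TFoCa libraries, and 626, 955 and 1056 in WT libraries. It thus followed Dlx5 and Dlx6, with a fold change of -4.42 ± 0.60 in TMut versus WT (adjusted p = 0.0013, limma). That value was -5.59 without TMut replicate 1 and -3.24 without TMut replicate 2, and Dlx6os1 shares 0 exon bases with Dlx6 in GENCODE M21. Dlx1as fell by 2.06 on the log2 scale, with an SE of 0.44 (adjusted p = 0.0088), a call lost without TMut replicate 2 (adjusted p = 0.060). It shares 335 exon bases with Dlx1, which are 6.21% of the exon bases of Dlx1, and reads from those bases cannot be told apart unless strand was used in counting. Gad1os, at -1.51 ± 0.41 (adjusted p = 0.022), lost its call without TMut replicate 1 or 2 or WT replicate 2 or 3 (adjusted p = 0.051 to 0.10). Six3os1, the antisense RNA of Six3, which is not among the 10 genes, did not pass the threshold in limma (-1.19 ± 0.46, adjusted p = 0.076). It passed with DESeq2 (0.014), with only the 2 genotypes fitted and without either TFoCa library (0.018 each). By limma 0 of these 4 antisense RNAs were called in TFoCa versus WT, 1 had an unadjusted p under 0.05, and limma-voom, edgeR and DESeq2 called 0. Slc32a1 shares 697 exon bases, 24.9% of its own, with the annotated gene Gm14205, and Dlx6 shares 104, or 4.38%, with Dlx6os2.

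The genes next to these loci had smaller fold changes at the median than the 10 genes. Up to 3 tested genes on each side of each locus gave 48 neighbours, in the gene order of RefSeq on build GRCm38.p6. Of the 48, 6 were higher and 16 lower in TMut versus WT, with a median log2 fold change of -0.28. Over all genes tested, 18.4% were called higher and 20.4% lower there. The 48 include Dlx6os1, Gad1os and Gm14204, all called lower in TMut versus WT. For TFoCa versus WT 2 of the 48 were higher and 3 lower, with a median of -0.05, where the shares of all genes were 5.25% and 3.52%. Beside Dlx1 and Dlx2, Metap1d was at -0.06 and Itga6 at -0.60 in TMut versus WT (adjusted p = 0.80 and 0.051, limma). Beside Dlx5 and Dlx6, Sdhaf3 was at -0.18 and Sem1 at 0.41 (adjusted p = 0.56 and 0.038), where the call of Sem1 was lost without TMut replicate 1, WT replicate 2 or WT replicate 3 (adjusted p = 0.11 to 0.22).

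A further 3 neighbours with large fold changes are named here, chosen after their values were seen, and they are not the only ones. In TMut versus WT, Enkur near Gad2 was at -2.05 ± 0.54, Sp5 near Gad1 at -2.01 ± 0.57 and Kit near Gsx2 at -1.59 ± 0.15. Cdx2, beside Gsx1, was at -3.31 ± 0.69 in TFoCa versus WT. Gm14204, beside Slc32a1, fell with it in TMut versus WT (-5.01 ± 0.58, adjusted p = 0.00062, limma), at -6.10 without TMut replicate 1 and -3.92 without TMut replicate 2. Apbb1ip, beside Gad2, rose while Gad2 fell, with 4.25 ± 0.32 in TMut versus WT and 2.54 ± 0.32 in TFoCa versus WT (adjusted p = 0.00015 and 0.0056). Ptgs1, 3 tested genes away from Lhx6, rose in TMut versus WT by 2.56 ± 0.36 (adjusted p = 0.0015). Of the 10 genes, 6 lie on chromosome 2, where 22.6% of tested genes were called lower in TMut versus WT.

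**Figure D4:**
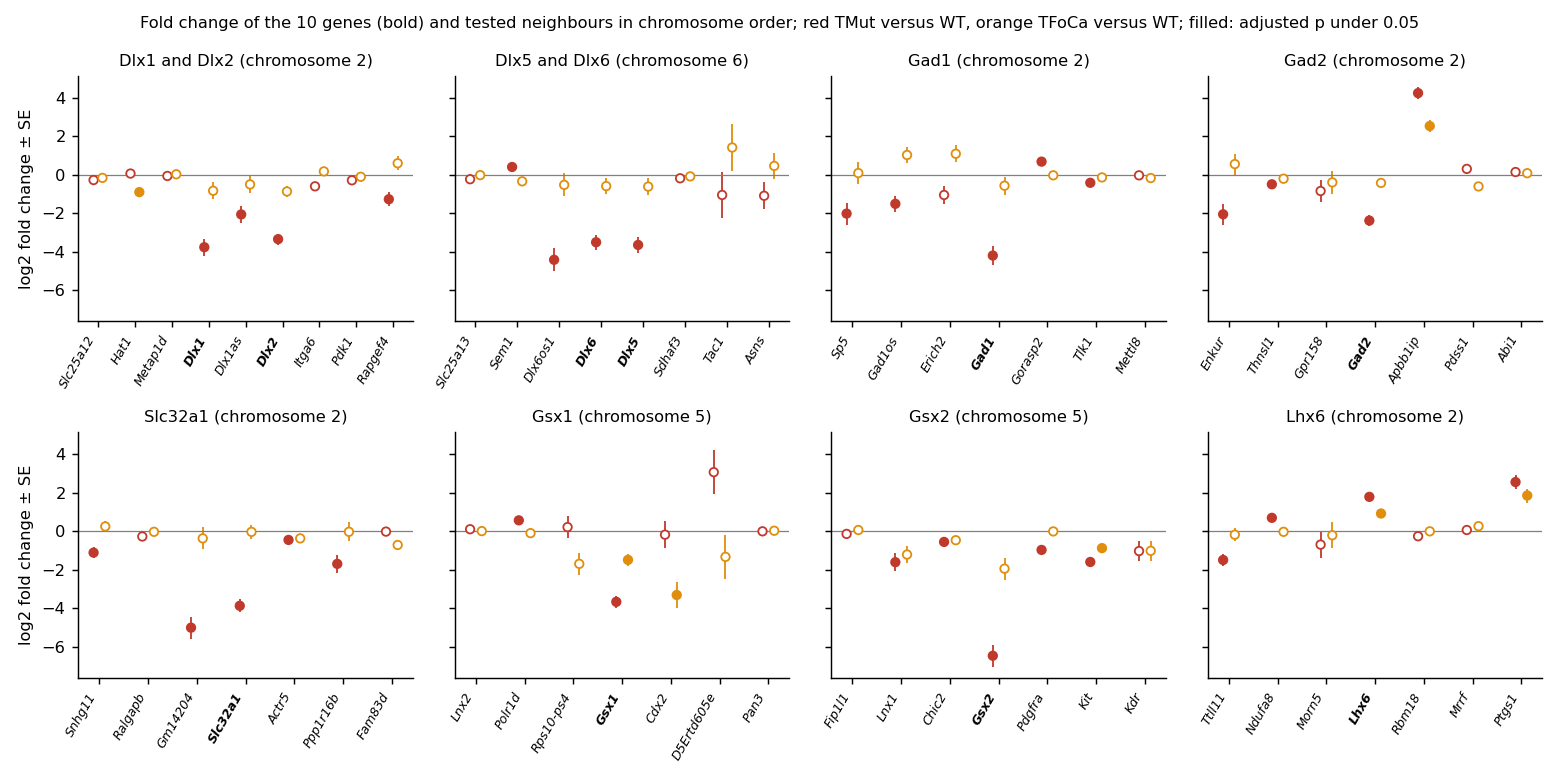
Log2 fold change with its standard error for the 10 genes, in bold, and their tested neighbours in chromosome order, in TMut versus WT (red) and TFoCa versus WT (orange), with filled points at an adjusted p under 0.05. At the Dlx loci the genes themselves and Dlx6os1 lie below -3 in TMut versus WT, while the nearest protein-coding neighbours lie between -0.60 and 0.41.

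Other transcription factors of the ventral forebrain were lower in TMut lines too, though by less at the median. Of 29 tested, 17 fell and 2, among them Gbx2, rose in TMut versus WT, with a median of -1.26. The call of Gbx2 was lost without TMut replicate 2, WT replicate 2 or WT replicate 3 (adjusted p = 0.11 to 0.27). Nkx6-2, a homeobox gene of the ventral neural tube, had 85.2 and 56.4 normalized counts in TMut libraries, 504 and 461 in TFoCa libraries, and 911, 1280 and 1520 in WT libraries, so that it followed Gsx1. Its fold change in TMut versus WT was -4.11 ± 0.27 (adjusted p = 0.0001, limma). Satb1, an interneuron chromatin factor, fell by 1.57 on the log2 scale, and Nr2f1, a nuclear receptor of forebrain patterning, by 1.26 (adjusted p = 0.00023 and 0.00057). Between TFoCa and WT lines, Nkx2-1 was higher and Nkx6-2, Sp8 and Nr2f1 were lower, of 29.

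Nkx2-1, the homeobox gene that acts upstream of Lhx6 in the medial ganglionic eminence, did not follow Lhx6 and is named here after its values were seen. It had 1044 and 250 normalized counts in TMut libraries, 3949 and 1890 in TFoCa libraries, and 461, 319 and 705 in WT libraries. The TMut libraries lay on either side of the WT libraries, and both TFoCa libraries lay above all others. Its fold change was 0.12 ± 0.61 in TMut versus WT (adjusted p = 0.89, limma) and 2.54 ± 0.61 in TFoCa versus WT (adjusted p = 0.044). The TFoCa call was lost without TFoCa replicate 1 or 2 or any WT replicate (adjusted p = 0.053 to 0.14). By limma Lhx8 and Sst, also of that eminence's lineage, were at -1.27 and -1.42 in TMut versus WT and did not pass the threshold (adjusted p = 0.056 and 0.097). Without TMut replicate 1 both passed it (0.041 and 0.0024), and Lhx8 also passed with DESeq2 (0.040), with only the 2 genotypes fitted (0.035) and without either TFoCa library (0.030 and 0.033).

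The rest of the GABA pathway fell in part. Of 12 tested genes of GABA metabolism and transport, 7 fell in TMut versus WT, with a median of -0.67, and for 0 was a rise called by limma, limma-voom, edgeR or DESeq2 or seen at an unadjusted p under 0.05. The fold change in TMut versus WT was -2.82 ± 0.35 for the GABA transporter gene Slc6a11 and -1.95 ± 0.14 for Aldh5a1, which acts in GABA breakdown (adjusted p = 0.00082 and 0.00013, limma). Between TFoCa and WT lines limma called 0 of the 12, while 3 had an unadjusted p under 0.05, all lower, and DESeq2 called 3 and edgeR and limma-voom 0.

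Of 19 tested genes for GABA receptors and their anchoring, 9 fell and 2, Gabrg3 and Gabre, rose in TMut versus WT, with a median of -0.82. The call of Gabrg3 was lost without TMut replicate 1 or 2 (adjusted p = 0.056 and 0.066). Among those that fell were Gabbr2, a subunit of the metabotropic receptor, at -3.02 ± 0.30, and Gabrb2, a subunit of the ionotropic receptor, at -2.56 ± 0.34 (adjusted p = 0.00038 and 0.0011, limma). Between TFoCa and WT lines limma called 0 of the 19, while 2 had an unadjusted p under 0.05 in the higher and 1 in the lower direction, and DESeq2 called 1 and edgeR and limma-voom 0. Of 18 tested genes of interneuron subtypes, 7 fell and 1, the enkephalin precursor gene Penk, rose in TMut versus WT, with a median of -1.02. Reln was at -3.48 ± 0.31, Calb2 at -3.55 ± 0.40 and Kit at -1.59 ± 0.15 (adjusted p = 0.00024, 0.00058 and 0.0003). Calb2 was at -4.19 without TMut replicate 1 and -2.91 without TMut replicate 2. TFoCa lines had Penk called higher than WT lines, and Reln and Kit called lower. The TFoCa calls of Nkx6-2, Sp8, Nr2f1, Reln and Kit were each lost without WT replicate 2, and again without WT replicate 3 (adjusted p = 0.058 to 0.14).

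Genes of the dorsal forebrain fell alongside the ventral ones. Of 20 tested, 15 fell in TMut versus WT, with a median of -3.09, beside -3.66 for the 10 ventral and GABA genes. For 0 of the 20 was a rise called by limma, limma-voom, edgeR or DESeq2 or seen at an unadjusted p under 0.05. Emx2, a homeobox gene of the cortical primordium, was at -2.35 ± 0.16, Emx1 at -4.82 ± 0.51 and Neurod2, a bHLH gene of cortical neurons, at -6.89 ± 0.75 (adjusted p = 0.00012, 0.00044 and 0.00049, limma). Emx1 had 4 reads in each TMut library and Neurod2 had 4 and 0, so these sizes depend on the pseudocount, and Neurod2 was at -8.14 without TMut replicate 1 and -5.65 without TMut replicate 2. Emx1 was the only one of the 20 that limma called in TFoCa versus WT, at -3.78 ± 0.51 (adjusted p = 0.0071). There edgeR called 2 of the 20 lower and DESeq2 3, and both called 0 higher. The summed count of the 20 was 19785 in TFoCa replicate 1 and 45730 in TFoCa replicate 2, beside 34927 to 38132 in WT libraries. Of 12 tested hedgehog pathway genes, a route that ventralises the forebrain, 5 fell and 1 rose in TMut versus WT, with a median of -0.62. The target gene Gli1 fell, at -2.59 ± 0.30, and the coreceptor gene Cdon rose by 1.54 ± 0.13 (adjusted p = 0.00069 and 0.00021). Cdon alone was called by limma in TFoCa versus WT, at 1.27 ± 0.13 (adjusted p = 0.0031).

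**Figure D5:**
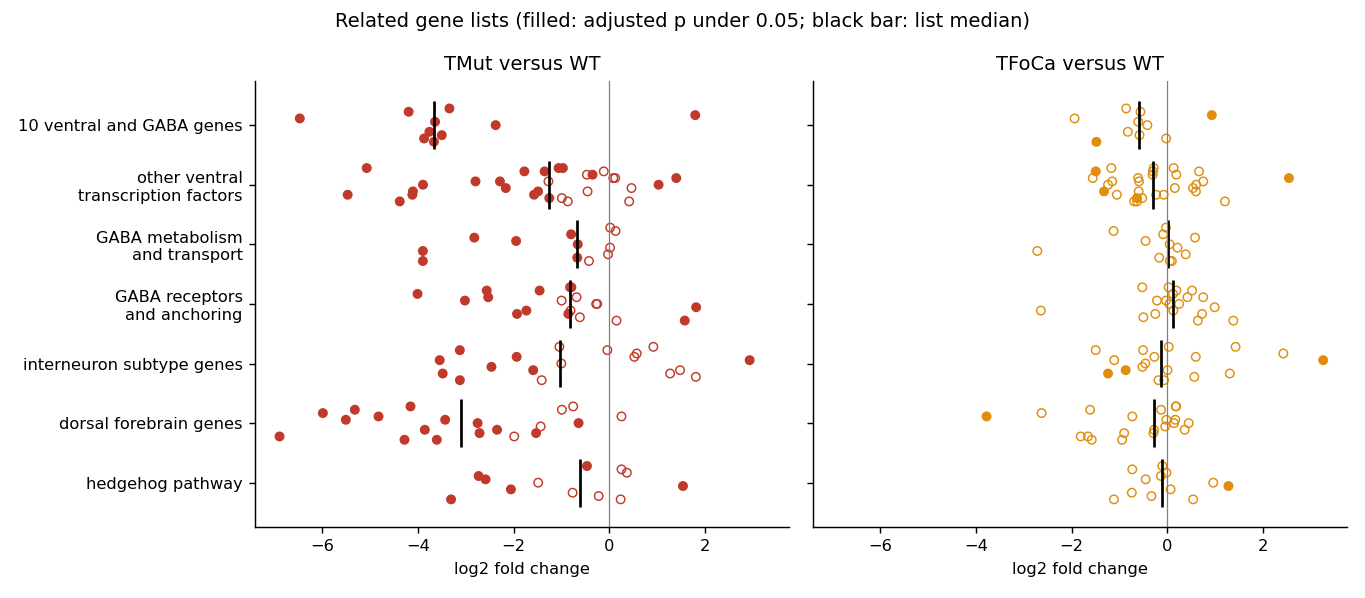
Log2 fold change of each tested gene in the 10 ventral and GABA genes and in 6 related lists, in TMut versus WT and TFoCa versus WT; filled points have an adjusted p under 0.05 and black bars are list medians. In TMut versus WT the medians run from -3.66 for the 10 genes and -3.09 for the dorsal genes to -0.62 for the hedgehog pathway.

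Reads counted in genes ranged from 33340167 to 62545457 over the 7 libraries. Tet1, Tet2 and Tet3 were counted in every library and were not called in either mutant genotype versus WT by limma (adjusted p = 0.074 to 0.69). Tet2 was lower in TMut than in TFoCa lines (-1.07, adjusted p = 0.023), a call lost without TMut replicate 1 or 2 (0.055 and 0.10) and a value of -0.57 without TFoCa replicate 1. Gene counts do not show an altered protein. Markers of other cells moved too, with some lists mostly lower and others mostly higher in TMut versus WT. For general neuron markers the summed normalized count was 13813 to 23119 in TMut libraries, 64759 to 67432 in TFoCa libraries and 84146 to 89496 in WT libraries, and 13 of 14 fell in TMut versus WT. Neural stem cell markers summed to 140140 to 167159, 170410 to 183651 and 196521 to 201189 in TMut, TFoCa and WT libraries, with 11 of 15 lower and Vim higher in TMut versus WT. Sox1 and Sox2 were lower in both mutant genotypes, and none of the marker genes in the table was at 0 in every library of a genotype. Mesenchymal markers summed to 245288 to 331999 in TMut libraries, 405973 to 465907 in TFoCa libraries and 155522 to 173348 in WT libraries, with 7 of 13 higher and 2 lower in TMut versus WT and 11 higher in TFoCa versus WT. Pluripotent cell markers summed to 15760 in TMut replicate 1 and 60704 in TMut replicate 2. The sums were 2559 to 2797 in TFoCa libraries and 15898 to 32186 in WT libraries. Of these 12 markers, 1 was higher and 1 lower in TMut versus WT, and 11 were lower and 1 higher in TFoCa versus WT. In TMut versus WT, 7 of 8 astrocyte markers fell and 1 rose, 7 of 10 oligodendrocyte lineage markers fell and 1 rose, and 3 of 10 neural crest markers rose and 1 fell. Of 8 microglia markers 1 was in the table, and of 7 endothelial markers 2 rose and 1 fell. The part of these markers in the result for the 10 genes was not tested.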

How the data were processed

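RNA was sequenced from 3 WT, 2 TFoCa and 2 TMut lines. Reads were handled by the authors with STAR 2.7.3a, Trim Galore 0.6.5, SAMtools, featureCounts and DESeq2 on build mm39, per the submitters' processing notes. The annotation and the use of strand are not given in the sources used here. The deposited signal is a normalized count, the gene count divided by the library's DESeq2 size factor. Whole reads were recovered for 100% of values within 0.001 read. Between 70.3% and 79.3% of counts of 1 to 20 reads were even, so both mates of a pair may have been counted. The smallest sum over the 7 libraries was 71 reads, so genes with fewer are not listed.

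The filter kept 18134 of 18145 genes, those that reached a normalized count of 10 in 2 or more libraries. The values, plus a pseudocount of 1 and on the log2 scale, entered limma 3.58.1 (R 4.3.3) with an intensity trend. The 3 genotypes shared 1 model, which left 4 residual degrees of freedom. Calls were made at an adjusted p under 0.05. The procedure was also run on simulated counts with changes planted in a small share of genes, and the outcome is not reported here. That run does not test calling where as many as 38.8% of genes are called, as in TMut versus WT. Fold changes on this scale understate the change of low genes. The members and lists were chosen with earlier results of these data known. Besides the 10 members, the text names the 3 genes of each related list with the smallest adjusted p in TMut versus WT, the antisense partners in the table, neighbours by position and the 5 nearest profiles to Dlx2 and Gad1; further genes are marked, and some genes of the related lists are not reported here by name. Alternatives were other pseudocounts, filters, normalizations and fits, limma-voom, edgeR 4.0.16 and DESeq2 1.42.0 on the recovered reads, edgeR on read counts divided by 2, a replicate block, and leaving out each library. Exon lengths and strand overlap came from GENCODE M21 (GRCm38), and gene order and start regions from RefSeq on GRCm38.p6, matched by symbol. No coordinates were moved between builds. Windows matched 8 of the 10 genes. Library totals limit precision only through counting error, and the spread between lines is in the SE.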

Additional observations from a re-analysis of the deposited data

How the results depend on the processing

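In TMut versus WT all 10 genes kept their direction and their call under all 14 alternatives and with each library left out. In TMut versus TFoCa 9 genes did so, and Lhx6 lost its call with only the 2 genotypes fitted (adjusted p = 0.094, limma) and in 5 of the 7 fits that leave out a library. In TFoCa versus WT Gsx1 held under all 14 but the replicate block (adjusted p = 0.12). Lhx6 lost its call there with a pseudocount of 8 (0.052), quantile normalization (0.067) and only the 2 genotypes (0.062). Gsx2 gained a call under 8 alternatives, among them limma-voom (0.016), edgeR with TMM (0.024) and DESeq2 (2.8e-07), and Dlx2 with DESeq2 (0.013). Calls in TFoCa versus WT numbered 2947 genes with DESeq2 (1590 in limma), 4 of the 10 genes (2 in limma) and 25 genes of the related lists (9 in limma). There edgeR with TMM called 1113 genes higher and 493 lower, and on read counts divided by 2 it called 1170 and 502, where limma called 952 and 638. With only the 2 genotypes fitted, TMut versus TFoCa gave 3474 calls (6491 in limma).

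Whether the replicate numbers pair the libraries was not settled. Deviations of same-numbered libraries from their group means correlated by 0.0192 to 0.185, not all above 0.1. In a genotype with 2 libraries the deviations mirror each other, so this check could hardly show or exclude a pairing. A replicate block gave 4620 calls in TMut versus WT (7043 without), 555 in TFoCa versus WT, with 0 of the 10 genes (3 at an unadjusted p under 0.05) and 4 genes of the related lists, and an adjusted p of 0.070 for Lhx6 in TMut versus TFoCa and 0.13 in TFoCa versus WT. Slc32a1 in TFoCa versus WT, not called in any fit, was -0.29 when WT replicate 1 was left out and turned to 0.14 without TFoCa replicate 1. It was 0.11 without WT replicate 2, 0.10 with WT replicate 3 left out and 0.10 under the replicate block.

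With 1 library left out, calls ranged from 4329 to 8127 genes in TMut versus WT, 495 to 1768 in TFoCa versus WT and 3164 to 5940 in TMut versus TFoCa. Of the 10 genes, 10, 0 to 2 and 9 to 10 were called. Of the related lists, 53 to 81 genes (69 with all libraries), 3 to 22 and 41 to 66 (64 with all libraries) were called. A fit without 1 of 2 lines assumes that the lone library varies like the others. The TMut values of Gsx2 rest on 22 and 4 reads, and its fold change has the largest SE of the 10 genes in TMut versus WT. The cause of these changes was not tested.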
